A study of Mus musculus with 7 samples.

Results

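The 32 genes described here are 20 immediate-early genes and 12 heat-shock chaperone genes, chosen as a check on how the tissue was handled and matched by symbol to the Ensembl mouse gene identifiers of the deposited count files. All 32 were among the 39017 genes of each file, and 30 passed the filter on low counts. Egr2 and Egr3 did not pass it, at 0.0354 and 0.0496 CPM (read counts scaled to a common library total) on average. The tissue was whole mouse fetal liver at stage E12.5, made into a suspension of separated cells before RNA was taken, in 7 libraries on the C57BL/6 strain. The 2 TAF10KO livers carried lox-flanked alleles of Taf10 with EpoCre, per their titles; the series text instead gives them a lox allele opposite a knockout allele and names the driver EpoR-Cre. All 3 TAF10HET livers had EpoCre: in replicate 1 a lox-flanked allele sat opposite the wild-type one, whereas replicates 2 and 3 were wild type over knockout. The 2 WT livers had lox-flanked alleles on both chromosomes and no Cre, so the comparisons with WT change Cre and the Taf10 genotype at once. Expression of a Cre from the erythropoietin receptor gene is largely erythroid, so lox-flanked alleles in most other liver cells stay intact.

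Immediate-early genes are switched on within minutes of a stimulus without new protein synthesis, through factors such as SRF and CREB that already sit in the nucleus. Many encode transcription factors (the AP-1, EGR and KLF proteins) and others encode phosphatases or RNA-binding proteins that shut the signal down again. Heat-shock genes encode chaperones, are induced by HSF1 when unfolded protein accumulates, and are also highly expressed in cells that make much protein, as erythroblasts do. Both sets are known to be induced when tissue is warmed, dissociated or left before lysis.

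Each title carries a 6-digit code in the form of a date, and libraries are set apart here by that code: the earlier, called first, was on replicate 1 of each group, and the later, called second, on WT replicate 2, TAF10HET replicates 2 and 3 and TAF10KO replicate 2. What was done on those dates is not stated in the sources used here. Gene counts ranged from 18008391 to 43401474 per library. Taf10, the targeted gene, stood at 37.8 and 43.8 CPM in TAF10KO, against 63.0 to 78.0 in TAF10HET and 71.9 and 96.4 in WT. Marker genes of other liver cells moved with the date code. The summed level of 8 mesenchymal markers was 1399 to 2543 CPM in the 3 libraries of the first code and 192 to 345 CPM in the 4 of the second, and all 8 fell by the test described below. All 8 endothelial markers fell too (323 to 471 against 169 to 215 CPM), as did 7 of 8 macrophage markers (266 to 328 against 154 to 216 CPM) and 6 of 8 hepatocyte markers (17108 to 19491 against 12196 to 15946 CPM). Of 8 erythroid markers 7 rose, from a summed 14414 to 20278 CPM to 23770 to 33202 CPM. None of these 40 markers was at 0 counts in any library. In bulk tissue, fewer cells of a type and less RNA per cell cannot be told apart. The part of these shifts in the differences between date codes below was not tested.

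**Figure D1:**
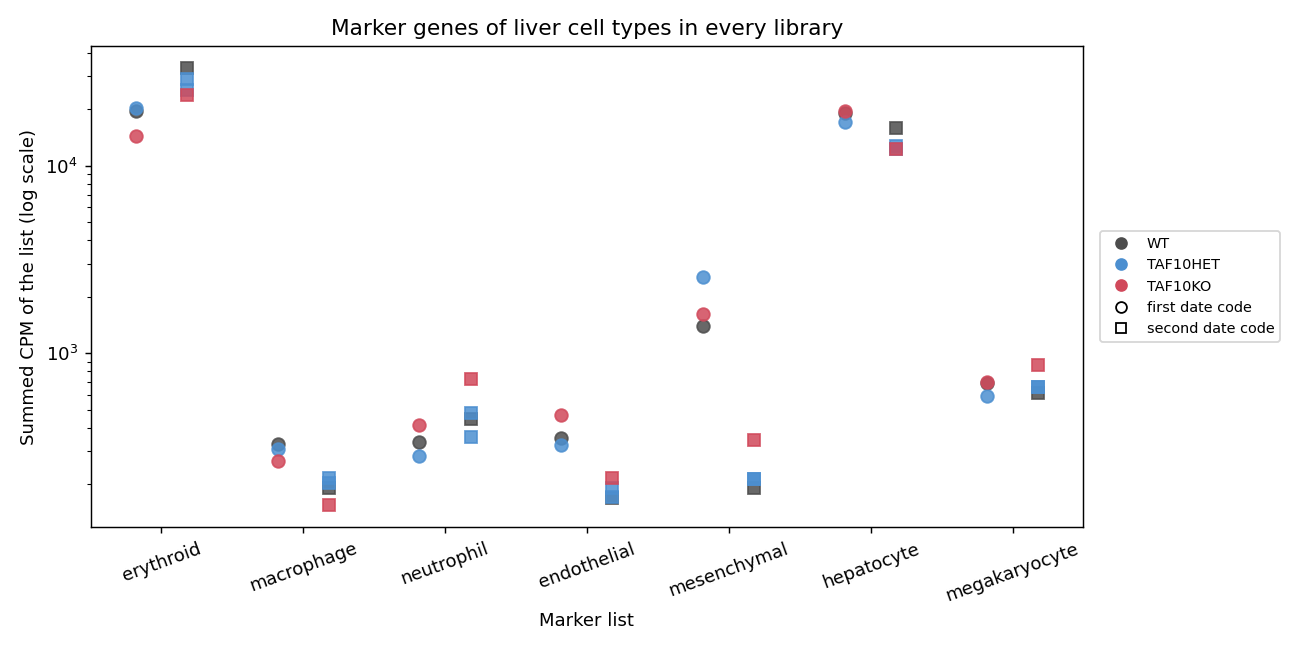
Summed CPM (vertical, log scale) of marker genes for 7 liver cell types (horizontal) in every library, coloured by genotype, with circles for the first date code and squares for the second. The mesenchymal sums of the second code, 192 to 345 CPM, lie below those of the first, 1399 to 2543 CPM, with no overlap.

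Per kilobase of exon, the chaperones were far more abundant than the immediate-early genes. Hsp90ab1 averaged 887 CPM per kilobase over the 7 libraries, Hspa8 558, Hsp90aa1 457, Hspd1 445, Hspa5 215 and Hspe1 212. The immediate-early genes with the most RNA per kilobase were Jund at 17.9, Ier2 at 13 and Dusp1 at 11, while Fos stood at 1.25, Egr1 at 2.63 and Atf3 at 1.03. The stress-inducible HSP70 genes Hspa1a (0.682) and Hspa1b (2.18) and the small heat-shock protein gene Hspb1 (1.16) were also low. Classical responders such as Fos and Hspa1a were thus measured from few reads: Fos had 27 to 280 reads per library and Hspa1a 3 to 156.

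**Figure D2:**
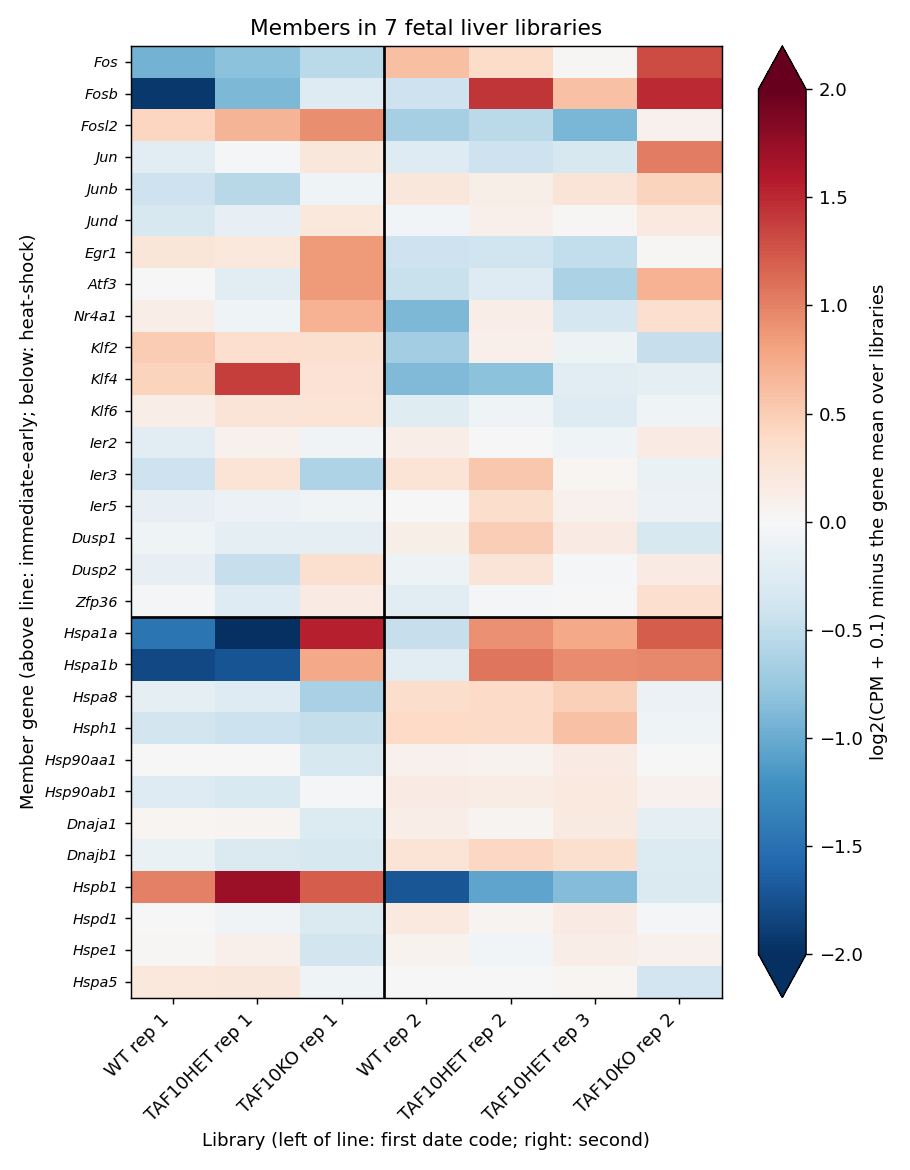
Each row is 1 of the 30 members that passed the filter and each column is 1 library. Colour gives log2(CPM + 0.1) minus the gene's mean over the 7 libraries. At the vertical line between date codes Fos changes from below to above its mean, and Hspb1 from above to below. Hspa8 and Hsph1 also change upward, and Fosl2 and Egr1 downward, except in TAF10KO of the second code. For these genes that library stays, narrowly, on the side of the mean held by the first code.

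Between the date codes, with genotype as a further term, 7 members rose and 7 fell in the libraries of the second code (edgeR quasi-likelihood test over 15800 genes, Benjamini-Hochberg adjusted p under 0.05). Over all genes tested 18.7% rose and 22.7% fell, so the members' shares, 23.3% in each direction, lie close to the background. Among the immediate-early genes 3 of 18 rose and 5 fell, and among the heat-shock genes 4 of 12 rose and 2 fell. The median difference was 0.12 (log2) for the immediate-early genes and 0.28 for the heat-shock genes, beside 0.02 for all genes. The members therefore did not move as a block: AP-1 and chaperone genes went both ways. The date difference rests on 3 libraries against 4. For 6 members every library of the second code lay above every library of the first, and for 6 below, beside 18.8% and 23.6% of all genes.

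The AP-1 proteins are dimers of a FOS and a JUN subunit. Fos, the classical first responder, stood at 1.27 CPM in WT, 1.40 in TAF10HET and 1.71 in TAF10KO of the first date code, and at 3.89 in WT, 3.28 and 2.58 in TAF10HET and 6.43 in TAF10KO of the second. Every library of the second code lay above every library of the first. Fos rose by 1.54 on the log2 scale (SE 0.216, edgeR adjusted p = 0.00174). Fosb, its close relative, had 0 to 8 reads in each library of the first code and 4 to 42 in the second, with overlapping levels of 0 to 0.217 and 0.185 to 0.964 CPM. It rose by a fitted 2.52 (SE 0.542, adjusted p = 0.00956), a size that at so few reads depends on how 0 reads are treated. With TAF10KO and WT only, or with a filter of 5 CPM, Fosb had too few reads to be tested. Junb, a JUN subunit abundant in blood cells, stood at 10.3, 9.25 and 12.9 CPM in WT, TAF10HET and TAF10KO of the first code, and at 16.0, 15.0, 16.5 and 18.6 in WT, the TAF10HET pair and TAF10KO of the second. These sets of libraries did not overlap, and the rise was 0.65 (SE 0.0958, adjusted p = 0.00212).

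Fosl2, the FOS-family gene of slower kinetics, went the other way. It stood at 9.58 CPM in WT, 11.4 in TAF10HET and 13.5 in TAF10KO of the first code, and at 4.40 in WT, 4.83 and 3.69 in TAF10HET and 7.46 in TAF10KO of the second. All libraries of the second code were lower (log2 difference -1.14, SE 0.149, adjusted p = 0.00127). Jun and Jund, the other JUN subunits, did not pass the test between date codes (0.10 and 0.17). Jun was at 10.5 to 11.9 CPM in all WT libraries and the TAF10HET pair of the second code, at 13.9 and 16.5 in TAF10HET and TAF10KO of the first, and at 28.4 in TAF10KO of the second. Jund was at 23.6, 26.4 and 34.3 CPM in WT, TAF10HET and TAF10KO of the first code and at 28.4, 31.9, 30.1 and 34.1 in the second. Jund shares 52.6% of its exon bases with an annotated gene on the opposite strand, Gm11175. Junb shares 7.52% with Prdx2 and Jun 7.28% with Junos, also on the opposite strand. No source used here gives the strand setting of the counting, so these counts, those of Jund most of all, may lack or include reads of the partner gene.

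Egr1, a zinc-finger factor induced through SRF, fell together with the KLF genes. Its level was 13.2 CPM in WT, 13.0 in TAF10HET and 20.2 in TAF10KO of the first code, and 8.39 in WT, 8.5 and 7.91 in TAF10HET and 11.4 in TAF10KO of the second. No library of the second code reached the lowest of the first, and the log2 difference was -0.71 (SE 0.0945, adjusted p = 0.00135). So Egr1 and Fos, both textbook markers of the same early response, differed in opposite directions between the same libraries. Klf6, a factor found in many cell types and the KLF gene with the most RNA per kilobase, was at 42.6, 46.8 and 46.9 CPM in WT, TAF10HET and TAF10KO of the first code and at 33.1, 36.5, 32.6 and 36.8 in the second (log2 difference -0.39, adjusted p = 0.0047). Klf2, a flow-responsive factor of endothelium, stood at 6.15, 5.43 and 5.35 CPM in the first code and at 2.60, 4.60, 3.99 and 3.08 in the second, in the same order (-0.75, adjusted p = 0.0184). Klf4 was at 2.00, 3.93 and 1.79 CPM in the first code and at 0.742, 0.773, 1.23 and 1.26 in the second (-1.36, adjusted p = 0.0142). For these 3 KLF genes, too, the libraries of the date codes did not overlap. The edgeR adjusted p of Klf4 was 0.0735 without TAF10HET replicate 1 and 0.0703 with TAF10KO and WT only. Klf2 and Klf4 also did not pass without WT replicate 1 or without WT replicate 2. In both of these runs the date difference rests on the same TAF10KO and TAF10HET libraries.

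The stress factor Atf3 and the orphan nuclear receptor Nr4a1 did not pass the test between date codes (-0.26 and -0.43). None of the 6 feedback and signalling genes passed it either. Dusp1, the MAP kinase phosphatase and the most abundant of them by CPM, stood at 34.0, 31.5 and 31.6 CPM in WT, TAF10HET and TAF10KO of the first code and at 38.9, 50.6, 40.1 and 28.9 in the second, where the TAF10KO library was the lowest of all 7. Its promoter holds the CREB-binding sequence TGACGTCA, which 1.79% of 32851 RefSeq promoter windows hold and which no other of the 26 members with a window holds. Zfp36, which encodes an RNA-binding protein that destabilises immediate-early transcripts, has a CArG box, the SRF-binding sequence, in its window. That box was found in 1.63% of all windows and in 1 other member, Egr2. These upstream stretches are shown, 5′ to 3′, because they are the members' only matches to those motifs among genes tested, with the motif in capitals (GRCm38.p6, minus strand for both, chr17:26508563-26508632 and chr7:28379229-28379328).
Dusp1: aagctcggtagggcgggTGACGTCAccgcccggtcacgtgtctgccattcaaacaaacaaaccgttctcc
Zfp36: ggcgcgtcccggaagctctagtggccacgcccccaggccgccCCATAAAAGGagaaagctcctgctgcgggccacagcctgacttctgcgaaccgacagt
Zfp36 stood at 8.37 to 12.7 CPM and Ier2 at 16.8 to 22.0 CPM over the 7 libraries, Ier3 at 5.32 to 12, Ier5 at 23.6 to 33.7 and Dusp2 at 2.74 to 4.78. Their date differences were 0.10, 0.13, 0.37, 0.17 and 0.18 on the log2 scale. The libraries of the date codes overlapped for each of these 6 genes.

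**Figure D3:**
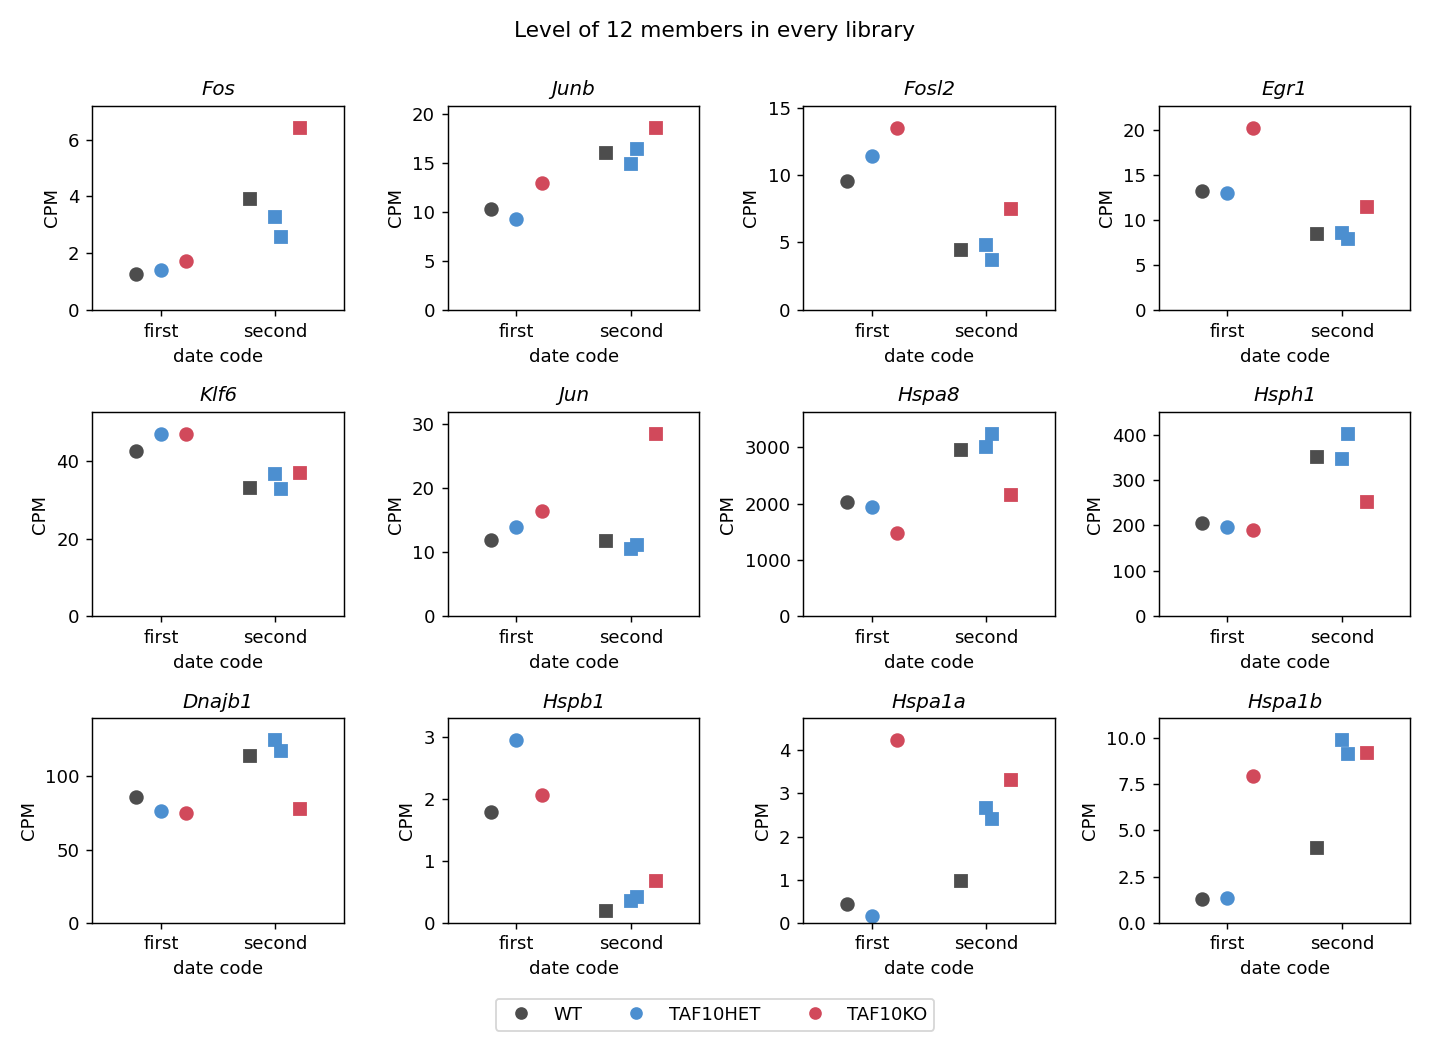
CPM (vertical, from 0) of 12 members by date code (horizontal), 1 point per library, coloured by genotype. The Hspa8 points of the second code, 2149.7 to 3238 CPM, lie above those of the first, 1482 to 2025, and in both codes the TAF10KO point is the lowest.

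Among the chaperones, the constitutive HSP70 gene Hspa8 and its nucleotide-exchange partner Hsph1 rose. Hspa8 was at 2025 CPM in WT, 1946 in TAF10HET and 1482 in TAF10KO of the first date code, and at 2953 in WT, 3013 and 3238 in TAF10HET and 2149.7 in TAF10KO of the second. The codes did not overlap (log2 0.60, SE 0.0812, adjusted p = 0.0015). Hsph1 was at 205, 197 and 191 CPM in WT, TAF10HET and TAF10KO of the first and at 350.1, 346, 401 and 252 in WT, the TAF10HET pair and TAF10KO of the second, again without overlap (0.72, SE 0.111, adjusted p = 0.00253). Both partners of this pair thus moved with the code and stood lowest in TAF10KO within each. Hsp90ab1, the constitutive HSP90, was at 2206, 2127 and 2567 CPM in WT, TAF10HET and TAF10KO of the first code and at 2950.5, 2929.5, 3036 and 2809 in WT, the TAF10HET pair and TAF10KO of the second (0.36, adjusted p = 0.0198). Hsp90aa1, the inducible one, was at 1779.6, 1776 and 1438 CPM in the first code and at 1895, 1875, 2010 and 1802 in the second, and did not pass (0.18, adjusted p = 0.125). Neither HSP90 gene had overlapping codes. Dnajb1, the stress-inducible HSP40 co-chaperone, rose by 0.40 (adjusted p = 0.0252). It stood at 85.7, 76.6 and 75.1 CPM in WT, TAF10HET and TAF10KO of the first code and at 114, 125, 117 and 77.9 in the second, where the TAF10KO library lay among those of the first code. Dnaja1, the other HSP40 gene, was at 233 to 292 CPM and 248 to 320.1 CPM (0.08).

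The rises of Hsp90ab1 and Dnajb1 were less secure than those of Hspa8 and Hsph1. With TAF10KO and WT libraries only, they were 0.27 (adjusted p = 0.0967) and 0.23 (adjusted p = 0.134). Neither gene passed without WT replicate 1 or without WT replicate 2, runs in which the date difference rests on the same TAF10KO and TAF10HET libraries. Without TAF10HET replicate 3 the edgeR adjusted p was 0.0682 for Hsp90ab1 and 0.0667 for Dnajb1. For Dnajb1 it was also 0.0962 without TAF10HET replicate 1 and 0.0524 without TAF10HET replicate 2.

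Hspb1, which encodes the small heat-shock protein that binds actin and unfolding proteins, fell most of all members. Its level was 1.78, 2.95 and 2.06 CPM in WT, TAF10HET and TAF10KO of the first code and 0.185, 0.348, 0.41 and 0.666 in WT, the TAF10HET pair and TAF10KO of the second, with no overlap (log2 difference -2.50, SE 0.339, adjusted p = 0.0015). These are 49 to 76 reads per library against 4 to 29. The mesenchymal marker sum was highest in the same library as Hspb1, TAF10HET of the first code, and within the second code both were highest in TAF10KO. The part of these cells in the Hspb1 difference was not tested. Hspa5, the HSP70 of the endoplasmic reticulum, was lower by a log2 difference of -0.23 (adjusted p = 0.0338). It stood at 1044, 1054 and 848 CPM in WT, TAF10HET and TAF10KO of the first code and at 909.96, 894, 925 and 694 in WT, the TAF10HET pair and TAF10KO of the second, and the codes overlapped. Its edgeR adjusted p was 0.241 without genotype in the fit and 0.117 with TAF10KO and WT only. Without TAF10HET replicate 2 it was 0.0877 and without TAF10HET replicate 3 it was 0.092. Hspa5 also did not pass without WT replicate 1 or without WT replicate 2, runs that leave the same libraries to the date difference. The mitochondrial chaperonin pair Hspd1 and Hspe1 did not pass (0.21, adjusted p = 0.0605, and 0.12, adjusted p = 0.387). Hspd1 stood at 1166, 1115 and 958 CPM in WT, TAF10HET and TAF10KO of the first code and at 1334, 1210.1, 1315 and 1139.8 in the second.

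Hspa1a and Hspa1b, the stress-inducible HSP70 pair on chromosome 17, varied widely between libraries. Hspa1a was at 0.437, 0.155 and 4.23 CPM in WT, TAF10HET and TAF10KO of the first code and at 0.974, 2.67, 2.40 and 3.31 in WT, the TAF10HET pair and TAF10KO of the second. Hspa1b was at 1.27, 1.34 and 7.95 CPM and at 4.03, 9.89, 9.14 and 9.20 in the same order. Both genes were lowest in WT and TAF10HET of the first code and high in both TAF10KO libraries and the later TAF10HET pair. Their sum was 1.71, 1.5 and 12.2 CPM in the first code, and in the second 5.01 in WT and 11.5 to 12.6 in the others. The date differences of 1.07 and 1.45 did not pass the test (edgeR adjusted p = 0.249 and 0.055). That of Hspa1b lay close to the threshold. It passed with DESeq2 (1.6, adjusted p = 0.000295) and, in edgeR, with median-of-ratios size factors (adjusted p = 0.0481), non-robust dispersions (0.038), a filter of 5 CPM (0.0453), no filter (2.9e-14) or embryo sex as a term (2.19e-06). It was 0.75 (adjusted p = 0.104) with TAF10KO and WT only, and 0.70 (adjusted p = 0.1) without TAF10HET replicate 1. Without TAF10KO replicate 1 or without TAF10KO replicate 2 it was 2.26, and that of Hspa1a was 2.37. The match between these runs carries no weight. A single TAF10KO library is fitted exactly, so in both runs only WT and TAF10HET set the date difference. TAF10HET replicate 1 differs from the other TAF10HET livers in its alleles as well as its date code, and these cannot be told apart.

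The copies are hard to separate by sequence. Of all 50-base words in the annotated transcripts of Hspa1a, 58.8% also occur in those of Hspa1b, and 62.3% of those of Hspa1b occur in Hspa1a. Hspa1a also shares 19% of its exon bases with an annotated gene on the opposite strand, Gm20481. With the strand setting unknown, its counts may lack or include reads of that gene. Reads that aligned to several places, 14.1% to 22.25% of the reads in each library, were left out of the gene counts, so both levels rest on the parts that differ, and the split between the copies is uncertain. Of the other members, Hspb1 shares 50.1% of its words with other annotated genes, Hsp90aa1 47.5%, Hspd1 42.1% and Hspa8 39.4%, on either strand. The gene sharing most with Hspb1 is the pseudogene Hsp25-ps1. Levels of these genes may be understated. All libraries were counted in the same way, but the share of reads left out differed between them. Whether the part lost from these genes also differed between libraries was not tested. Jund shares 48.3% of its words, and the gene sharing most with it is Gm11175. That gene overlaps Jund on the opposite strand, so words shared there lie at the same place in the genome.

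The heat-shock element, the sequence bound by HSF1, is built from inverted repeats of GAA. The minimal form GAANNTTC, searched on both strands from 250 bases before to 50 after the start site, was in 7 of the 9 heat-shock members with a RefSeq window, in 2 of 17 immediate-early members (Jun and Fosl2) and in 7.86% of all windows. The longer form of 3 units, which contains the minimal form, was in Hsph1, Hspd1 and Hspe1 and in 0.603% of all windows. The stretches that follow are shown because genes with the element went different ways between the date codes: Hsph1 rose, Hspb1 fell, and Hspa1a, Hspa1b and Hspe1 did not pass the test. They run 5′ to 3′ on GRCm38.p6 with the matches in capitals. The first 4 cover the 150 bases before the start site, at chr17:34972157-34972306 (minus strand), chr17:34959239-34959388 (minus), chr5:135887769-135887918 (plus) and chr1:55087998-55088147 (plus), and the Hsph1 site lies just after the start, at chr5:149636287-149636303 (minus).
Hspa1a: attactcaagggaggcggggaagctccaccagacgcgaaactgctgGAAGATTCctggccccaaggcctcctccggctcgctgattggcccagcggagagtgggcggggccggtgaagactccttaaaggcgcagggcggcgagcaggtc
Hspa1b: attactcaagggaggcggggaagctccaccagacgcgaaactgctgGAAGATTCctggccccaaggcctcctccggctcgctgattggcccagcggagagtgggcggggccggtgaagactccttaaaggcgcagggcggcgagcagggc
Hspb1: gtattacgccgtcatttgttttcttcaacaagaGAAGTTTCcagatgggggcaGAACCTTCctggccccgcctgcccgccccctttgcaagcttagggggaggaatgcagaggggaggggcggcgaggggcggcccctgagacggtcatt
Hspe1: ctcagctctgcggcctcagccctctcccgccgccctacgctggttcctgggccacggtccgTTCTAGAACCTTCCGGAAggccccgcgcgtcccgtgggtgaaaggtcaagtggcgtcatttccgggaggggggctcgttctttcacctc
Hsph1: agaTTCTGGAAAGTTCt
The Hspa1a and Hspa1b stretches are identical at 149 of 150 bases, and their full windows at 296 of 300. The Hspe1 window overlaps that of Hspd1, which is transcribed the other way, so the same element was counted for both. A match describes these letters and is not evidence of binding in these livers.

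Between TAF10KO and WT, 0 of the 30 members passed the test with the date code as a term (edgeR adjusted p under 0.05), where 0.481% of all genes rose and 0.127% fell. At an unadjusted p under 0.05 there were 15 members, 8 immediate-early genes and 2 heat-shock genes higher and 5 heat-shock genes lower, beside 17.9% of all genes. DESeq2 with the same terms called 6, beside 3.68% of all genes: Jun (0.92, adjusted p = 0.0375), Hspa1a (2.76, adjusted p = 0.0176) and Hspa1b (2.05, adjusted p = 0.00308) higher, and Hspa8 (-0.46, adjusted p = 7.08e-05), Dnaja1 (-0.31, adjusted p = 0.0256) and Hspa5 (-0.35, adjusted p = 0.000996) lower. The median of the fitted differences was 0.38 for the immediate-early genes and -0.22 for the heat-shock genes, with 0.03 over all genes. Both TAF10KO libraries lay above both WT libraries for 7 immediate-early and 2 heat-shock genes, beside 15.2% of all genes, and below both for 1 (Dusp1) and 4, beside 14.5%. Within the first date code the medians of TAF10KO minus WT were 0.37 and -0.24, and within the second 0.35 and -0.15.

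Which members passed between TAF10KO and WT turned on the terms and libraries of the fit. With embryo sex as a further term, which leaves few libraries to estimate the spread, 14 members passed, beside 17.2% of all genes. Of the 14, 7 were higher, the immediate-early genes Fosb, Jun, Jund, Egr1 and Atf3 with Hspa1a and Hspa1b, and 7 were lower, all of them chaperones. Without TAF10HET replicate 1 there were 7, beside 5.65% of all genes: Jun (0.88, edgeR adjusted p = 0.0302), Egr1 (0.53, adjusted p = 0.0418), Atf3 (1.03, adjusted p = 0.0418) and both inducible HSP70 genes higher, and Hspa8 (-0.45, adjusted p = 0.0174) and Hspa5 (-0.35, adjusted p = 0.039) lower. Leaving out a TAF10KO replicate leaves 1 TAF10KO liver, whose group then adds no spread to the test, so only sizes are given. The genes named were picked by the adjusted p of those same runs, so their sizes do not stand for all members. Without TAF10KO replicate 1 the log2 differences included 1.38 for Jun, 0.86 for Fosl2, -0.49 for Hspa8 and -0.51 for Hsph1. Those of Dnajb1 and Hspa5 were -0.61 and -0.38. Without TAF10KO replicate 2 they included 0.49 for Jund, 4.0 for Hspa1a and 3.0 for Hspa1b.

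**Figure D4:**
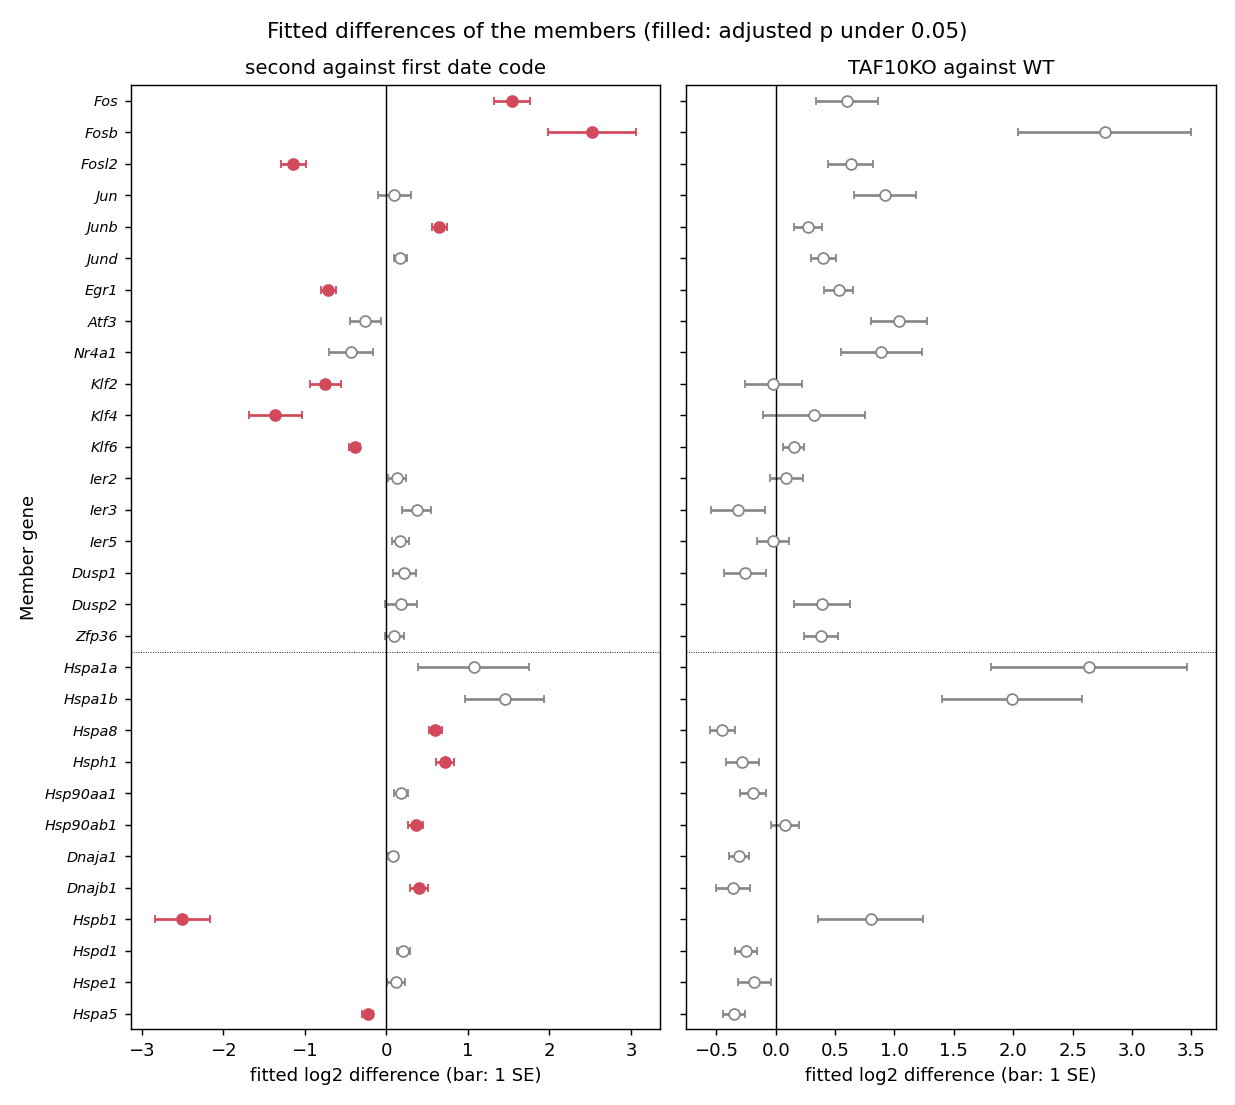
Fitted log2 differences of 30 members (points) with 1 SE (bars), second against first date code on the left and TAF10KO against WT on the right. Filled points passed an adjusted p of 0.05: 7 higher and 7 lower on the left, and 0 on the right.

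Libraries of the same date code can be set side by side without the shift between codes. TAF10KO was the highest library of its code on both codes for 11 of 18 immediate-early genes (61.1%), beside 17.6% of all genes, and the lowest on both for 1, Ier3, beside 15.6% of all genes. For the heat-shock genes the counts were 1 of 12 highest (Hspa1a) and 7 of 12 lowest (58.3%). The place of Hspa1a rests on its uncertain split from Hspa1b. In the second code the sum of the pair was 12.51 CPM in TAF10KO and 12.56 in TAF10HET replicate 2. The 11 were Fos, Fosb, Fosl2, Jun, Junb, Jund, Egr1, Atf3, Nr4a1, Klf6 and Zfp36, so all 6 AP-1 genes were among them. Some led narrowly. Klf6 was at 46.89 CPM beside 46.79 in TAF10HET of the first code, and at 36.75 beside 36.51 in TAF10HET replicate 2. Fosb had 8 reads beside 2 in TAF10HET of the first code, and 0.964 CPM beside 0.927 in TAF10HET replicate 2. The 7 were Hspa8, Hsph1, Hsp90aa1, Dnaja1, Dnajb1, Hspd1 and Hspa5. These are counts over 2 TAF10KO livers with no test, and WT and TAF10HET serve as the reference at once.

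Atf3, a stress factor induced by both growth signals and the integrated stress response, illustrates the pattern. It was at 2.04 CPM in WT, 1.76 in TAF10HET and 3.80 in TAF10KO of the first code and at 1.48 in WT, 1.70 and 1.29 in TAF10HET and 3.40 in TAF10KO of the second. Both TAF10KO livers lay above all other libraries, with log2 differences of 1.04 from WT (SE 0.238, edgeR adjusted p = 0.102) and 1.13 from TAF10HET (SE 0.217, adjusted p = 0.0558). Nr4a1 was at 1.82, 1.55 and 2.74 CPM in WT, TAF10HET and TAF10KO of the first code and at 0.835, 1.82, 1.29 and 2.11 in the second, and both TAF10KO values were again the highest (0.89 against WT, adjusted p = 0.24). For Jun the difference was 0.47 within the first code and 1.28 within the second, fitted at 0.92 (SE 0.258, adjusted p = 0.152). It was larger, 1.38, without TAF10KO replicate 1, which leaves 1 TAF10KO liver. With embryo sex as a term it was 0.59 (edgeR adjusted p = 0.00643). Hspa8 was lower in TAF10KO by 0.45 and 0.46 on the log2 scale within the codes (fitted -0.45, SE 0.103, adjusted p = 0.09995).

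**Figure D5:**
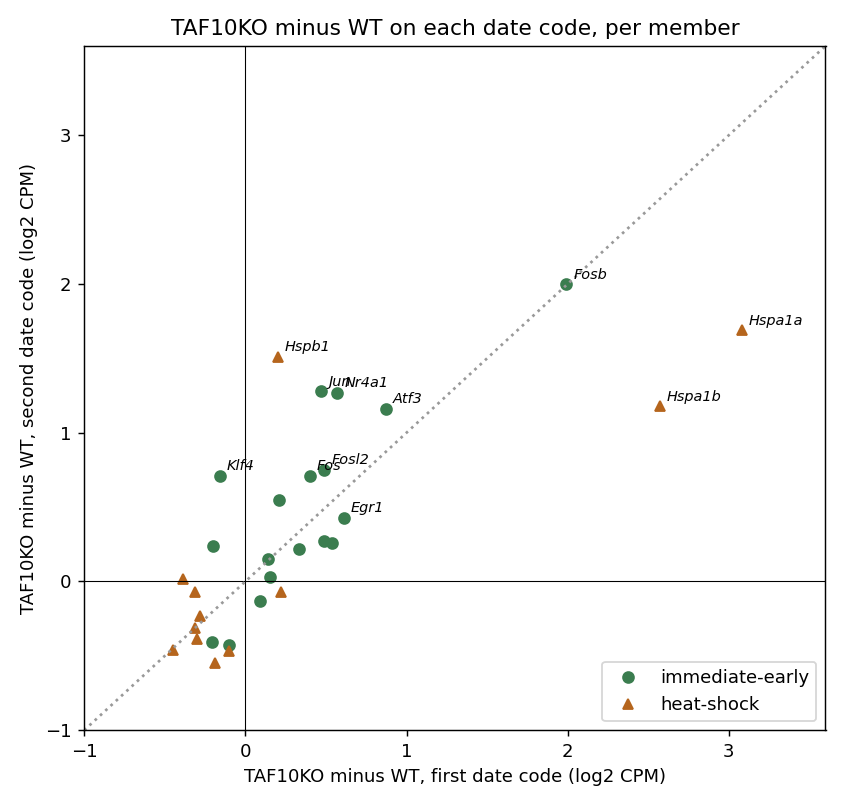
TAF10KO minus WT in log2 CPM on the first date code (horizontal) and the second (vertical), 1 point per member, with 1 library of each genotype per code. The dotted line marks equal differences. Hspa1a (3.08 and 1.69) and Hspa1b (2.57 and 1.18) lie farthest to the right, and most other heat-shock genes lie below 0 on both axes.

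For Hspa1a and Hspa1b, TAF10KO exceeded WT by 3.08 and 2.57 on the log2 scale within the first code and by 1.69 and 1.18 within the second. The fitted differences were 2.64 (SE 0.825, adjusted p = 0.187) and 1.99 (SE 0.588, adjusted p = 0.179). They passed without TAF10HET replicate 1 (2.46, edgeR adjusted p = 0.00792, and 1.81, adjusted p = 0.0185). Without TAF10KO replicate 2, which leaves 1 TAF10KO liver, they were 4.0 and 3.0. The gap to WT was thus present on both codes, but for Hspa1b the later TAF10HET pair (9.89 and 9.14 CPM) stood beside TAF10KO (9.20 CPM). Whether the difference of TAF10KO from WT itself differed between date codes was tested as an interaction, and 0 of 30 members passed, beside 0.443% of all genes higher and 0.703% lower. In that fit only TAF10HET of the second code has 2 libraries, so that pair alone gives the spread. Neither TAF10KO nor WT adds to it, so the test cannot decide whether their difference changed with the code. The fitted changes were -1.5 for Hspa1a, -1.45 for Hspa1b and 0.82 for Jun on the log2 scale.

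Markers of other cell types also stood at different levels in TAF10KO and WT. The summed neutrophil markers stood at 412 CPM in TAF10KO beside 337 in WT of the first code and at 732 beside 445 in the second, and 0 of the 8 passed the test. Endothelial markers stood at 471 beside 351 and at 215 beside 169 CPM, and 2 of 8 rose. Erythroid markers stood at 14414 beside 19547 and at 23770 beside 33202 CPM, and 0 of 8 passed. Mesenchymal markers stood at 1625 beside 1399 and at 345 beside 192 CPM, with a median log2 difference of 0.55 and all 8 positive, and macrophage markers at 266 beside 328 and at 154 beside 191 CPM, with a median of -0.38 and 7 of 8 negative. In neither list did any marker pass. Over all 7 libraries these sums ranged from 282.6 to 732 CPM for neutrophils, 169 to 471 for endothelium, 192 to 2543 for mesenchyme, 154 to 328 for macrophages and 14414 to 33202 for erythroid cells. The part of these marker differences in the members' values was not tested. Embryo sex differed as well, with Xist, the RNA of the inactive X, at 2.64 CPM in TAF10HET replicate 1, at 1.40 in TAF10KO replicate 2 and at 1649.5 to 1948 elsewhere. Cre and Taf10 genotype cannot be told apart in this comparison.

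Between TAF10HET and WT, 0 of 30 members passed (edgeR), beside 0.00633% of all genes rising and 0% falling. At an unadjusted p under 0.05 there was 1, Fosb, beside 3.35% of all genes, and DESeq2 called 0, beside 0.057%. The medians were 0.09 for the immediate-early genes and 0.01 for the heat-shock genes, with 0.01 for all genes. No member had TAF10HET libraries entirely above or below the WT libraries, where 4.33% and 4.95% of all genes did. Hspa1a and Hspa1b had the widest gaps between codes, with TAF10HET minus WT at -1.16 and 0.07 in the first and at 1.31 and 1.22 in the second. Between TAF10KO and TAF10HET, which both carry EpoCre, 0 of 30 members passed (edgeR), beside 1.15% and 0.456% of all genes. At an unadjusted p under 0.05 there were 14, beside 17.1% of all genes, and DESeq2 called 6, beside 4.37% of all genes: Jun (0.92, adjusted p = 0.0153), Egr1 (0.54, adjusted p = 0.0335) and Atf3 (1.13, adjusted p = 0.0425) higher and Hspa8 (-0.49, adjusted p = 1.08e-06), Dnaja1 (-0.32, adjusted p = 0.0071) and Hspa5 (-0.36, adjusted p = 8.26e-05) lower. For 6 members both TAF10KO libraries lay above all 3 TAF10HET libraries and for 3 below, beside 10.3% and 9.77% of all genes. Without TAF10HET replicate 1 there were 4 calls (Fos and Jun higher, Hspa8 and Dnajb1 lower), beside 3.10% of all genes. With embryo sex as a term there were 19, beside 17.4%. For the fits that leave 1 TAF10KO liver only sizes are given, again for genes picked by the adjusted p of those runs. Without TAF10KO replicate 1 the log2 differences were 1.06 for Fos, 1.35 for Jun, 1.2 for Atf3, -0.52 for Hspa8 and -0.54 for Hsph1. Those of Dnajb1 and Hspa5 were -0.6 and -0.39. Without TAF10KO replicate 2 they were 3.27 for Hspa1a, 2.09 for Hspa1b and -0.48 for Hspe1. This comparison shares its TAF10KO libraries with the one against WT, and the comparisons with WT share the WT libraries.

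Other genes of these pathways, listed without regard to how they moved, gave the setting. Of 33 further immediate-early genes tested, 6 rose and 13 fell in the second date code. Over all genes tested 18.7% rose and 22.7% fell, the background for this list and those that follow. The kinase gene Sgk1 (-1.02, adjusted p = 0.000478), the ERK phosphatase gene Dusp6 (-0.77, adjusted p = 0.000551) and the small GTPase gene Rhob (-0.69, adjusted p = 0.000551) had the smallest adjusted p. The matricellular gene Ccn1, a target of SRF and YAP, was lower by a log2 difference of -1.48, and Myc rose from 85.9 to 127 CPM to 149 to 165 CPM (0.66, adjusted p = 0.00182). Of 16 ERK and SRF pathway genes 2 rose and 6 fell, led by Elk3 (-0.81), Mrtfb (-0.62) and Spry2 (-0.96), an ERK feedback inhibitor. Against WT, TAF10KO was higher for 1 gene of each of these lists, beside 0.481% of all genes. Bhlhe40, a basic helix-loop-helix repressor, rose by 1.09 (SE 0.147, edgeR adjusted p = 0.0345) and Map2k1, which encodes the kinase MEK1, by 0.53 (adjusted p = 0.0438). Both also rose against TAF10HET (1.08 and 0.45), as did Cebpb (1.16), Spry1 (0.82) and the mitochondrial protease gene Lonp1 (0.59). No listed gene passed between TAF10HET and WT.

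Of 25 further genes listed as cytosolic chaperones or HSF1 targets 10 rose and 3 fell in the second date code, beside 18.7% and 22.7% of all genes. The 3 with the smallest adjusted p were Cryab, another small heat-shock protein (-2.67, adjusted p = 0.00031), Serpinh1, the collagen chaperone (-1.87, adjusted p = 0.000323), and the HSP40 gene Dnaja4 (0.74, adjusted p = 0.00193). Serpinh1 was at 227 to 376 CPM in the first code and at 70.6 to 93.1 CPM in the second. Of 7 mitochondrial chaperone and protease genes 5 rose and 0 fell, led by Dnaja3 (0.42), Lonp1 (0.50) and Grpel1 (0.25). Of 18 endoplasmic reticulum chaperone and unfolded protein response genes 2 rose and 6 fell. Pdia6 (-0.54) and Pdia4 (-0.54), which encode disulphide isomerases, fell, and Sdf2l1 rose (0.65). Hsf1, the master heat-shock factor, rose from 41.2 to 49.9 CPM to 51.0 to 59.2 CPM (0.32, adjusted p = 0.031), while Hsf2 (-0.39) and Hsbp1 (-0.22), the HSF-binding repressor, fell. Between TAF10KO and TAF10HET the HSP40 gene Dnajb4 fell (log2 difference -0.50, edgeR adjusted p = 0.025), and 0 of these chaperone genes passed between TAF10KO and WT.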

How the data were processed

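Libraries were made from total RNA of fetal liver cell suspensions with TruSeq version 2, per the labels' protocols. The deposited files hold whole-number counts of reads for each Ensembl gene, not normalized, and 5 summary lines, which were left out. The submitters' processing notes name TopHat2 2.0.8, DESeq2 and mm10. Neither the counting program nor its strand setting is known. GENCODE M21 on that build gave symbols and exon lengths (37607 of 39017 identifiers matched), and RefSeq gave promoters.

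With R 4.3.3, edgeR 4.0.16 was run on all 7 libraries (filterByExpr by group, TMM, robust quasi-likelihood F test, genotype and date code as terms, 15800 genes, two-sided, Benjamini-Hochberg adjustment, threshold 0.05). CPM used TMM-scaled library totals, and log2 CPM a prior count of 2. The SE is the log2 difference divided by the square root of F. Deviations of libraries from their group means correlated at 0.40 to 0.74 in 8 pairs with the same date code and at -0.74 to -0.40 in 8 pairs with different ones, so the code served as the replicate block; genes are not independent, and in groups of 2 the deviations mirror each other. Alternatives were DESeq2 1.42.0, other scalings and filters, no block, embryo sex (male where Xist was under 10 CPM), only the groups compared, and each library left out. The test was checked on simulated data.

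All 32 members are named. Values in every library are given for members called, for those whose date codes did not overlap and for the most abundant of each family. Fosb and Dnaja1 are given as ranges per date code instead. Up to 3 called genes are named per further list. Myc, Ccn1 and other values were chosen after they were seen. The members, lists and design were chosen with earlier results of these data known. P-values set each difference against the spread between these livers that the terms of the fit leave. Those between the date codes do not speak for other dates.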

Additional observations from a re-analysis of the deposited data

Results flagged for a closer look

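Among the 4 libraries of the second date code, 4 of 30 members had a library far from the other libraries by Dixon's criterion, which chance meets in about 1 of 20 groups. TAF10KO replicate 2 was high for Jun, at 28.4 CPM beside 10.5 to 11.7 in the others, and for Egr1, at 11.4 CPM beside 7.91 to 8.5. It was low for Hspa5, at 694 CPM beside 894 to 925. WT replicate 2 was low for Hspa1b, at 4.03 CPM beside 9.14 to 9.89. The 4 libraries are of 3 genotypes, with 1 of TAF10KO and 1 of WT.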

How the results depend on the processing

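No member's difference changed sign under any alternative run, among the members and comparisons followed singly (those called, those without overlap, and Hspa1a and Hspa1b). Between TAF10KO and WT, where the reported fit called 0 members, DESeq2 called 6 and the fit with no filter on low counts 10. That with embryo sex called 14 and that with only the groups compared 4, and leaving out 1 TAF10HET library gave 0 to 7. Between TAF10KO and TAF10HET the calls were also 0, against 6 with DESeq2, 10 with no filter and 1 with at least 5 CPM in 2 libraries. There were 19 with embryo sex and 0 to 4 with 1 TAF10HET library left out. Between TAF10HET and WT there was 1 call with no filter and 1 with embryo sex, Hspa1b in both, and 0 with any 1 TAF10HET library left out. These settings also moved the share of all genes called, from 0% to 17.2% against WT and from 0% to 17.4% against TAF10HET. Without the replicate block no member and no gene was called in any genotype comparison. With genotype left out of the date comparison 13 members were called in place of 14, beside 35.1% of all genes in place of 41.4%. Leaving out 1 library gave 9 to 17 calls between date codes, with 9 without WT replicate 1 and 9 without WT replicate 2.

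The immediate-early median between TAF10KO and WT was 0.21 with the filter of 5 CPM, in place of 0.38, and 0.30 to 0.42 with 1 library left out. Against TAF10HET it was 0.15 with that filter and 0.22 without the replicate block, in place of 0.34, and between date codes it was 0.02 with only the groups compared, in place of 0.12. The heat-shock median ranged from -0.25 to -0.15 against WT and from -0.29 to -0.12 against TAF10HET with 1 library left out, and was -0.26 in the latter with the filter of 5 CPM. Between TAF10HET and WT it was 0.08 without the replicate block and -0.01 to 0.08 with 1 library left out, in place of 0.01. Between date codes it was 0.22 with the filter of 5 CPM and with only the groups compared, and 0.22 to 0.29 with 1 library left out. The filter of 5 CPM tests fewer members; for the other settings the cause was not tested. With 2 TAF10KO and 2 WT livers, and under 10 reads for Fosb in 5 libraries, small differences in low genes were not detectable at this depth.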
